A study of Mus musculus with 4 samples.

Results

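Aminoacyl-tRNA synthetases are the enzymes that join each amino acid to its tRNA. Their genes were followed in RNA-seq of mouse embryonic stem cells (mESCs) that live on either of 2 forms of CTCF, the zinc finger protein that holds chromatin loops and domain borders. The genes were chosen by name: 36 of the 37620 genes in the count table, 20 of them for cytosolic enzymes and 16, with names ending in 2, for mitochondrial enzymes. Both lines were made in CTCF-EGFP-AID mESCs, in which the tagged endogenous CTCF is degraded on addition of auxin. In WT_CTCF cells it was replaced by wild-type CTCF expressed from a vector, and in MUT_CTCF cells by an O-GlcNAc-deficient CTCF in which the residue T668 was changed. The lines came from picked clones, so a difference between the lines cannot be told apart from a difference between clones. The cells were grown on gelatin in medium with serum and LIF, and 2 replicate libraries were sequenced per line, 4 in all. The comparison asks which RNAs differ when this residue of CTCF, a site of the sugar, is changed.

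Cytosolic synthetases charge the tRNAs that feed ribosomes in the cytosol. Mitochondrial synthetases are encoded in the nucleus, imported, and charge the tRNAs used to translate the few proteins encoded by mitochondrial DNA. Gars and Kars make both forms from a single gene, and are counted here with the cytosolic enzymes. Phenylalanine in the cytosol needs the products of both Farsa and Farsb, and Eprs encodes a fused enzyme for glutamate and proline. A subset of the cytosolic enzymes sits together in the multi-tRNA synthetase complex. Many cytosolic synthetase genes are textbook targets of ATF4, the transcription factor that raises amino acid supply genes when amino acids are short or the endoplasmic reticulum is stressed. ATF4 binds a joined site of the C/EBP and ATF families.

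The letters of this joined site were found in the promoters of cytosolic but not of mitochondrial synthetases in the windows read. RefSeq promoters (GRCm38.p6, from 250 bases before to 50 bases after the gene start) were matched for 27 of the 36 genes. Those of Cars, Hars, Lars, Nars, Rars, Vars, Wars, Hars2 and Pars2 were not matched. The core TGATGNAA, read on either strand (TTNCATCA on the other), occurred in promoters of 5 of 13 cytosolic and 0 of 14 mitochondrial genes. Of all 32851 promoters 3.97% held it. Listed genes were counted once, with a match in any promoter of the gene, and the share of all was counted by promoter. A gene with more than 1 promoter has more room for a match, so the units are unlike for each motif. All 5 genes belong to the known ATF4 targets, of which 8 had a promoter. The core is not particular to synthetases: it also stood in promoters of 7 of 22 ATF4 response genes outside them (31.8%), Asns, Pycr1, Trib3, Chac1, Slc7a11, Atf3 and Nupr1. The stretches are shown because, of the synthetase promoters read, these held the core, with the core in capitals, 5′ to 3′ on the strand of the gene. Counted from the gene start, with negative positions before it, the core of Aars begins at -112 (stretch chr8:111033704-111033763, plus strand) and a second copy at 10 (chr8:111033840-111033869). Gars has it at -30 (chr6:55037941-55038000, plus strand), Tars at -15 (chr15:11399659-11399718, minus strand), Iars at 8 (chr13:49682126-49682155, plus strand) and Yars at 4 (chr4:129189895-129189924, plus strand).
Aars upstream: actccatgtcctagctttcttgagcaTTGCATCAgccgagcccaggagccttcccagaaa
Aars downstream: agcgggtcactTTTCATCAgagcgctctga
Gars: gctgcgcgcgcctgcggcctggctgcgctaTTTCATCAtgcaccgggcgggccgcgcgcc
Tars: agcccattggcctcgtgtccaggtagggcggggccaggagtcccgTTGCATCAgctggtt
Iars: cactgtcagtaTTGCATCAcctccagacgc
Yars: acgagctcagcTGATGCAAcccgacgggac
The E-box CACGTG was found in promoters of 4 of 13 cytosolic and 1 of 14 mitochondrial genes, against 7.15% of all promoters. The NRF1 motif (GCGCA, any base, GCGC) was found in 3 of 13 and 2 of 14, against 4.6%. Both strands were read for each motif, and no match in these promoters overlapped another. A match describes the letters of the window and shows no binding.

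Whether the mates of a read pair were counted apart is not given in the sources used here. Low counts were more often even than odd (59.9% of counts from 2 to 11), and higher ones less so (51.6% from 12 to 41). Each even count in these windows stands with the odd count above it. Where larger counts are rarer this alone favours even ones, so the shares cannot tell whether mates were counted apart. A count, level or floor may be up to 2 times the number of fragments, and halving the counts changed no call of a synthetase. The libraries were close in depth, with 40524694 to 40977464 counts, and TMM factors from 0.9942 to 1.006. A count of 3, taken as the floor, was 0.0732 to 0.074 CPM. All 36 genes passed the filter on low counts and were among the 16264 genes tested. The stem cell markers were strongly expressed, with 250732 to 253915 normalized counts summed over 8 genes. Of these 8, 4 had a log2 fold change above 0 and 4 below. Sox2 was called higher (log2 fold change 0.095, edgeR adjusted p = 0.0358) and Dppa5a lower (-0.099, edgeR adjusted p = 0.0157), beside 1.56% and 1.61% of all tested genes. At an unadjusted p under 0.05 only, Klf4 (0.098) was higher (edgeR adjusted p = 0.0851). Pou5f1 (-0.071) and Zfp42 (-0.060) were lower at that bound only (edgeR adjusted p = 0.119 and 0.212). Of all tested genes, 7.61% were higher and 7.65% lower at an unadjusted p under 0.05. Of 7 feeder fibroblast markers 3 did not pass the filter, Lum was at 0 in every library, and their sums were 886 and 908 in WT_CTCF and 964 and 1023 in MUT_CTCF. Most of each sum was Thy1, at 597 and 656 against 694 and 748. Of the 4 tested genes 2 were above 0 and 2 below, with 0 called. Col3a1 had few counts, 26 and 23 against 12 and 5, and was lower at an unadjusted p under 0.05 only (log2 fold change -1.5, edgeR adjusted p = 0.288). Primitive endoderm markers summed to 406 and 396 in WT_CTCF against 444 and 670 in MUT_CTCF, with no call in their 4 tested genes of 6. All 4 had a log2 fold change above 0, with a median of 0.56. Gata6 (0.95) and Sox17 (0.75) were higher at an unadjusted p under 0.05 only (edgeR adjusted p = 0.0733 and 0.259). Of 6 2-cell-like markers only 3 were found by name, Zscan4c, Zscan4d and Zscan4f, all of the Zscan4 family. They summed to 1249 and 1244 against 987 and 900, and all 3 had a log2 fold change below 0. Zscan4d fell (log2 fold change -0.53, edgeR adjusted p = 0.0027). Zscan4c (-0.30) was lower at an unadjusted p under 0.05 only (edgeR adjusted p = 0.279). The part of these small sums in the values of the synthetases was not tested. In bulk RNA, fewer cells of a type and less RNA per cell cannot be told apart. The study calls the replicates biological without saying whether they were separate cultures, so p-values measure the spread between these libraries.

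The cytosolic synthetases were expressed at higher levels per exon length than the mitochondrial ones. The median cytosolic level was 2559 and 2574 normalized counts per kb of exon in WT_CTCF and 2619 and 2625 in MUT_CTCF. The mitochondrial median was 511 and 479 in WT_CTCF and 531 and 495 in MUT_CTCF. Kars, the lysine enzyme, had the highest level, at 11751 ± 91.4 (SD, n = 2) normalized counts per kb in WT_CTCF and 12113 ± 146 in MUT_CTCF. Gars (glycine) and Aars (alanine) followed, with means over all libraries of 7579 and 5297 per kb. Eprs had the lowest cytosolic level, 1326 ± 25.5 per kb in WT_CTCF and 1319 ± 32.6 in MUT_CTCF (SD, n = 2). By the mean over all libraries only 2 mitochondrial genes reached it: Sars2, for serine, at 1734 ± 34.8 and 1638 ± 88.0 per kb, and Lars2, for leucine, whose 1462 ± 23.1 in WT_CTCF lay above Eprs and whose 1196 ± 138 in MUT_CTCF lay below it. Wars2, for tryptophan, was the least abundant, at 44.2 ± 0.62 and 50.5 ± 12.6 per kb. Exon length is the union over annotated transcripts, so the level of a gene with long rarely used exons is understated.

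**Figure D1:**
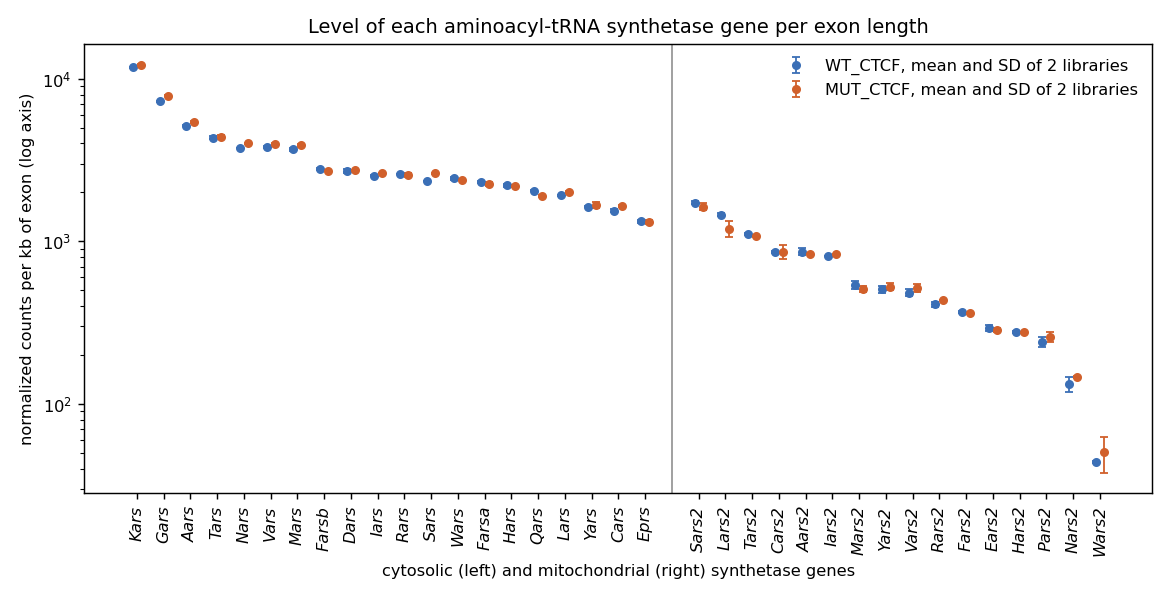
Normalized counts per kb of exon on a log axis for the 20 cytosolic and 16 mitochondrial synthetase genes, each ordered by level; points are the mean of 2 libraries per line and bars the SD. The cytosolic genes run from Kars at 11932 down to Eprs at 1322 (means of all libraries), and the mitochondrial genes from Sars2 at 1686 down to Wars2 at 47.3, with the points of the lines nearly on each other.

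Of the 20 cytosolic synthetase genes, 2 rose and 1 fell in MUT_CTCF cells at an adjusted p under 0.05 in edgeR's quasi-likelihood test. The same rule called 1.56% of all tested genes higher and 1.61% lower. The rises were of Sars and Gars, and the fall was of Qars, none of them by more than 11.1% of the WT_CTCF level. No synthetase met the criterion of the study methods, a more than 2-fold change at an unadjusted p under 0.05, which 1.3% of tested genes met. At an unadjusted p under 0.05 the cytosolic genes gave 7 higher and 1 lower, where 7.61% and 7.65% of tested genes passed.

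Sars, the cytosolic serine enzyme (ENSMUSG00000068739, chr3:108227783-108248127 in mm9, minus strand), had 8609 and 8611 normalized counts in WT_CTCF and 9514 and 9611 in MUT_CTCF. Both of the MUT_CTCF values were the higher ones, and the gap between the lines was wider than that between replicates. It rose by 11.1%, a log2 fold change of 0.15 ± 0.035 (SE, edgeR adjusted p = 0.00524). With any 1 of the 4 libraries left out the log2 fold change was 0.14 to 0.16, and the call was lost each time (edgeR adjusted p = 0.0834 to 0.439). The fits without a MUT_CTCF library called 0 of all tested genes, so a lost call there says nothing of a gene.

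Gars (ENSMUSG00000029777, chr6:54987995-55029498, plus strand), with the core shown above just before its start, had 17334 and 17485 normalized counts in WT_CTCF and 18698 and 18934 in MUT_CTCF. Its libraries did not overlap between the lines either. It rose by 8.08%, a log2 fold change of 0.11 ± 0.028 (SE, edgeR adjusted p = 0.0142). Leaving out any 1 library kept the log2 fold change between 0.10 and 0.12 and ended the call (edgeR adjusted p = 0.12 to 0.477).

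Qars, the glutamine enzyme and a member of the multi-tRNA synthetase complex (ENSMUSG00000032604, chr9:108410336-108418272, plus strand), moved the other way. It had 12674 and 12814 normalized counts in WT_CTCF and 11717 and 11866 in MUT_CTCF, again without overlap. It fell by 7.48%, with a log2 fold change of -0.11 ± 0.032 (SE, edgeR adjusted p = 0.0325). The call ended when any 1 library was left out (log2 fold change -0.12 to -0.10, edgeR adjusted p = 0.192 to 0.484) and when libraries were scaled by their total alone (adjusted p = 0.0729).

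Aars, the alanine enzyme with 2 cores in its window (ENSMUSG00000031960, chr8:113557044-113581564, plus strand), was next by p. Its normalized counts were 47482 and 48311 in WT_CTCF and 49801 and 51074 in MUT_CTCF, with the MUT_CTCF libraries above. The log2 fold change of 0.075 ± 0.023 (SE) did not pass (edgeR adjusted p = 0.0546), and it did pass with scaling by library total (adjusted p = 0.0199). The other 16 cytosolic genes had log2 fold changes from -0.038 (Farsa) to 0.10 (Cars, cysteine), and none passed. Kars was at 0.044 and Eprs at -0.0084. Over the 20 genes, 13 had a log2 fold change above 0 and 7 below, where 50.8% of all tested genes were above 0 and 49.2% below. In 10 genes both MUT_CTCF libraries were above both WT_CTCF libraries and in 3 both were below, beside 22.3% of tested genes in each direction. The median log2 fold change was 0.041, against 0.0034 over all tested genes, and the median size without its sign was 0.046, against 0.11. These genes have many counts (4323 to 50830 per library), and so small standard errors, with a median of 0.034.

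**Figure D2:**
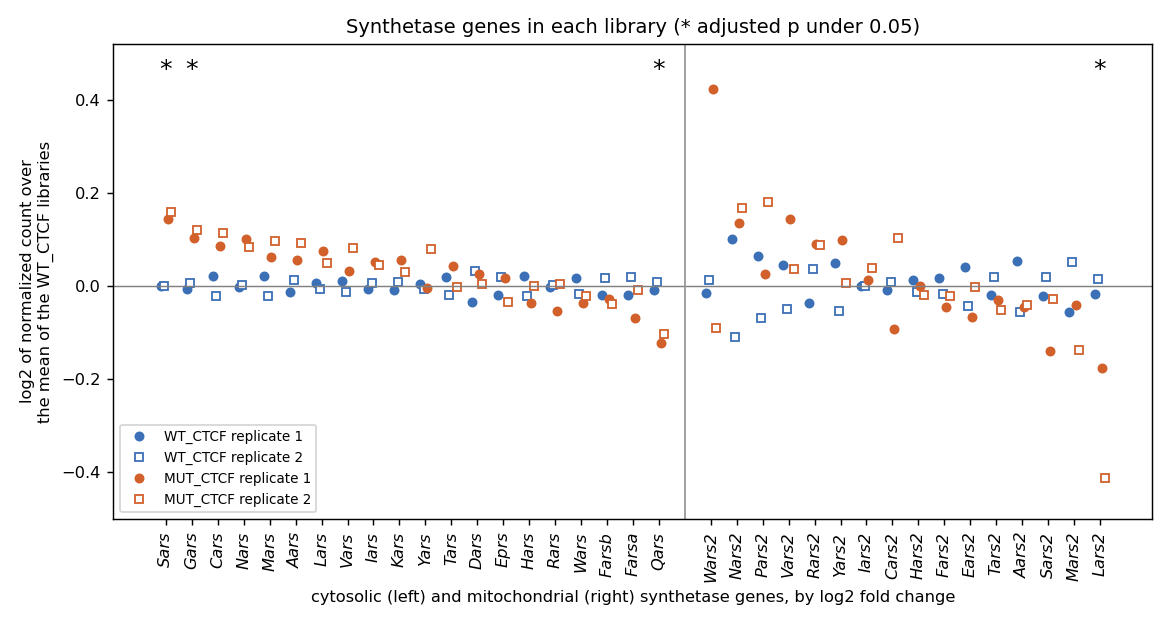
Log2 of the normalized count of each synthetase gene in each library over the mean of the 2 WT_CTCF libraries, ordered by log2 fold change within the cytosolic (left) and mitochondrial (right) genes; circles are replicate 1 and squares replicate 2. Asterisks mark Sars, Gars, Qars and Lars2, which passed an adjusted p under 0.05; the replicates of MUT_CTCF lie far apart for Wars2 and Lars2.

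Of the 16 mitochondrial synthetase genes, 0 rose and 1 fell at an adjusted p under 0.05, beside 1.56% and 1.61% of all tested genes. At an unadjusted p under 0.05 the same 1 gene was found, where 7.61% of tested genes were higher and 7.65% lower. The gene was Lars2, the mitochondrial leucine enzyme (ENSMUSG00000035202, chr9:123276058-123371782, plus strand). It had 5609 and 5735 normalized counts in WT_CTCF and 5020 and 4261 in MUT_CTCF. Both MUT_CTCF libraries were lower, but they were also further from each other than the WT_CTCF pair was. The log2 fold change was -0.29 ± 0.048 (SE, edgeR adjusted p = 4.05e-05), a fall of 18.2%. Without WT_CTCF replicate 1 or 2 it was -0.31 and -0.27, and the call was kept (adjusted p = 5.06e-05 and 0.000607). Without MUT_CTCF replicate 2 it was -0.18 (adjusted p = 0.473), and without MUT_CTCF replicate 1 it was -0.41 (adjusted p = 0.139), in the fits that called 0 of all tested genes. DESeq2's test, which weighs the replicate spread of each gene differently, did not call it (adjusted p = 0.155).

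A stretch of the Lars2 transcript after the coding sequence matches other places of the genome. Of its 3881 bases, 398 (10.3%) matched at 95% identity or more over at least 100 bases in 5 places, the longest at chr12:79451917-79452160. Which genes lie at these places was not examined. Gene totals do not show where in Lars2 its reads fell, and the part of this stretch in the difference was not tested.

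The other 15 mitochondrial genes did not pass. Vars2, for valine, had 2731 and 2558 normalized counts in WT_CTCF and 2923 and 2713 in MUT_CTCF (log2 fold change 0.092 ± 0.056 SE, edgeR adjusted p = 0.468). Sars2 had 3180 and 3272 against 2931 and 3163 (-0.082 ± 0.052, edgeR adjusted p = 0.492). Nars2, for asparagine, had 598 and 516 against 612 and 626 (0.15 ± 0.11, edgeR adjusted p = 0.569). The lines overlapped for Vars2 and lay apart by less than the gap between replicates for Sars2 and Nars2. Wars2 had the highest log2 fold change of the 36 genes, 0.19 ± 0.16 (SE, edgeR adjusted p = 0.64), and it rested on a single library. Its counts were 260 and 266 in WT_CTCF and 353 and 247 in MUT_CTCF, and without MUT_CTCF replicate 1 the log2 fold change was -0.090.

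The mitochondrial group had 8 genes above 0 and 8 below, and a median log2 fold change of -0.00042. Both MUT_CTCF libraries were above in 3 genes and below in 4, and the lines overlapped in 9, shares near the 22.3% of all tested genes in each direction. The gap between replicates was larger than the change in 12 of 16 mitochondrial genes, and in 9 of 20 cytosolic ones. With 246 to 7417 counts per library the mitochondrial genes had a median standard error of 0.070 on the log2 scale, against 0.034 for the cytosolic ones.

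Summed over the genes, the cytosolic normalized counts were 260486 and 261386 in WT_CTCF and 267458 and 270354 in MUT_CTCF. The mitochondrial sums were 38350 and 38121 in WT_CTCF and 37521 and 37008 in MUT_CTCF. The ratio of the sums was thus 6.79 and 6.86 in WT_CTCF and 7.13 and 7.31 in MUT_CTCF, with all of the synthetases together at 0.728% to 0.755% of a library. The cytosolic sum is carried by its abundant members and the mitochondrial sum by Iars2, Lars2 and Tars2, so these are values of a few genes and not of the groups. Without Lars2 the mitochondrial sums overlapped, at 32741 and 32386 in WT_CTCF and 32500 and 32746 in MUT_CTCF, and the ratios were 7.96 and 8.07 against 8.23 and 8.26.

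In 13 pairs the same amino acid has a cytosolic and a mitochondrial gene. The cytosolic gene was expressed at the higher level per kb in every pair, from 1.48 times (Sars over Sars2) to 51.1 times (Wars over Wars2), with a median of 6.07. The changes did not follow each other by pair. Both genes of a pair had the same sign in 6 pairs and opposite signs in 7, and the log2 fold change of the cytosolic gene was the higher in 7 and the lower in 6. The widest gaps were those of leucine, with Lars at 0.063 and Lars2 at -0.29, and of serine, with Sars at 0.15 and Sars2 at -0.082. The gap for tryptophan had the other sign, with Wars at -0.030 and Wars2 at 0.19. No test of a difference within a pair was made.

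**Figure D3:**
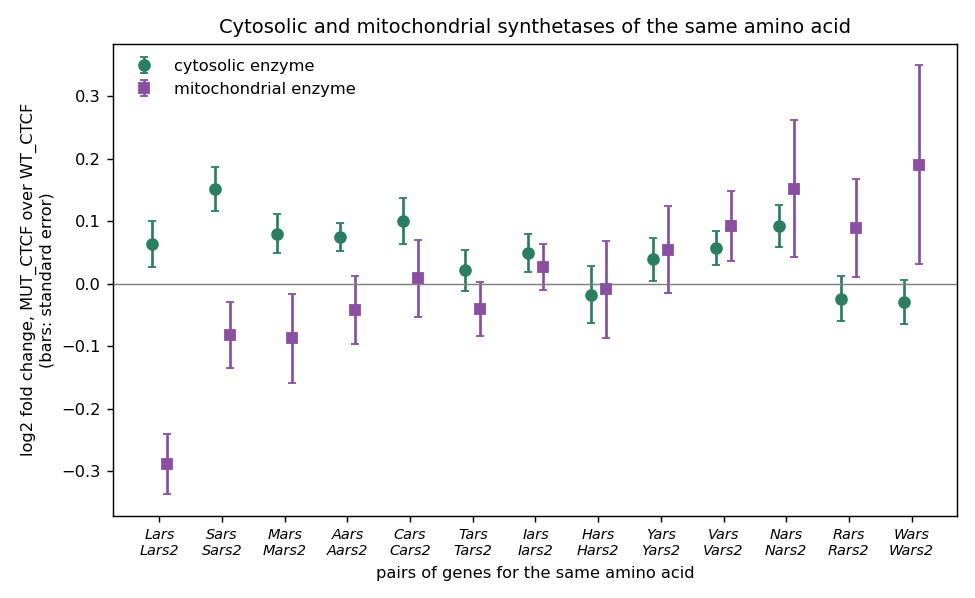
Log2 fold change of MUT_CTCF over WT_CTCF for the cytosolic (circles) and mitochondrial (squares) gene of 13 amino acids, ordered by their difference; bars are the standard error of the fit. Leucine stands at the left with a difference of 0.35 and tryptophan at the right with -0.22, and the bars of the mitochondrial genes are mostly the longer.

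Within the cytosolic set, the known ATF4 targets and the others had different medians. Among the 12 known targets, 10 had a log2 fold change above 0, 2 were called higher (Sars and Gars) and 0 lower, and the median was 0.069, with a range from -0.030 to 0.15, beside 1.56% and 1.61% of all tested genes called. Both MUT_CTCF libraries were above both WT_CTCF libraries in 8 of them and below in 1, beside 22.3% of all tested genes in each direction. Among the 8 other cytosolic genes, 3 were above 0, 0 were called higher and 1 lower (Qars), and the median was -0.021. The 5 genes that hold the core in their window were all above 0: Gars at 0.11, Aars at 0.075, Iars (isoleucine) at 0.049, Yars (tyrosine) at 0.039 and Tars (threonine) at 0.021. For 2 of them this rested on 1 library, since Yars was at -0.0051 without MUT_CTCF replicate 2 and Tars at -0.0020 without MUT_CTCF replicate 1. The known targets read without a match were Sars at 0.15, Mars (methionine) at 0.080 and Eprs at -0.0084. The sizes of the change overlapped between genes with and without the core.

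The genes of the multi-tRNA synthetase complex did not all change in the same direction. Of its 8 enzymes 5 were above 0, beside 50.8% of all tested genes, and the median was 0.029. In the complex 1 gene was called lower (Qars) and 0 were called higher, beside 1.61% and 1.56% of all tested genes. They ran from -0.11 (Qars) to 0.080 (Mars). The 12 cytosolic genes outside the complex had 8 above 0, a median of 0.048 and both of the rises. By catalytic fold, the 19 class I genes held both falls (Qars and Lars2) with a median of 0.039, and the 17 class II genes held both rises (Sars and Gars) with a median of 0.015. With 2 calls in each class no difference between classes was tested.

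The helper genes of tRNA charging did not pass the test. Of 13 genes (scaffolds of the complex, the mitochondrial glutaminyl-tRNA amidotransferase and methionyl-tRNA formyltransferase, selenocysteine enzymes, editing enzymes and the tRNA exporter Xpot), 0 were called, 9 were above 0 and the median log2 fold change was 0.059, with a range from -0.22 to 0.19. Pstk, the kinase of the selenocysteine path, at 0.19, and Eef1e1, a scaffold of the complex, at 0.11, passed an unadjusted p under 0.05 only (edgeR adjusted p = 0.223 and 0.324), and are named here after their values were seen. Of all tested genes 7.61% were higher at that bound.

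ATF4 response genes other than synthetases were read beside them. Of 25 genes, 10 were called higher and 0 lower (1.56% and 1.61% of all tested genes), 21 were above 0, and the median log2 fold change was 0.21. In 18 the MUT_CTCF libraries were both above the WT_CTCF ones and in 2 both were below, beside 22.3% of all tested genes in each direction. At an unadjusted p under 0.05, 15 were higher and 2 lower, where 7.61% and 7.65% of tested genes passed. The lower ones were Sesn2 (-0.085) and Cth (-0.13), which did not pass (edgeR adjusted p = 0.147 and 0.291). No test of this list against the synthetases was made. Stc2, a secreted glycoprotein, had 541 and 557 normalized counts in WT_CTCF and 936 and 1042 in MUT_CTCF (log2 fold change 0.85 ± 0.097 SE, edgeR adjusted p = 4.43e-09). Chac1, which degrades glutathione, had 287 and 214 against 460 and 541 (1.0 ± 0.14, edgeR adjusted p = 1.5e-06). Phgdh, the first enzyme of serine synthesis, had 6736 and 6493 against 7804 and 7838 (0.24 ± 0.037, edgeR adjusted p = 1.15e-05). Slc7a1, a carrier of basic amino acids, rose by 0.20 ± 0.036, and Trib3, a pseudokinase that restrains ATF4, by 0.44 ± 0.082 (edgeR adjusted p = 0.000167 and 0.000308). All 5 kept the call without either WT_CTCF library. The fits without a MUT_CTCF library called 0 of all tested genes, and there, without replicate 2 and without replicate 1, the log2 fold changes were 0.77 and 0.92 for Stc2, 0.88 and 1.11 for Chac1, 0.24 and 0.25 for Phgdh, 0.20 and 0.20 for Slc7a1 and 0.51 and 0.37 for Trib3. The RNA of Atf4 itself was at 0.0005 (edgeR adjusted p = 0.998), with 12197 and 11895 normalized counts in WT_CTCF and 11998 and 12103 in MUT_CTCF. Asns, which makes asparagine and is another textbook target, was at 0.017 (edgeR adjusted p = 0.805). The smallest log2 fold change among the 10 called genes of this list, 0.16 for Psat1, was close to the 0.15 of Sars.

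**Figure D4:**
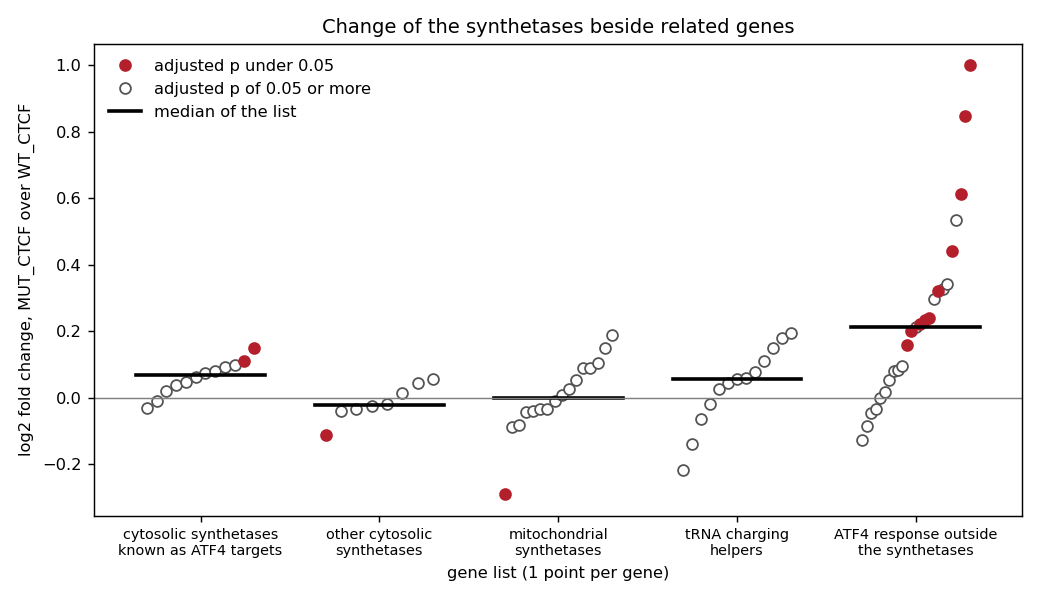
Log2 fold change of MUT_CTCF over WT_CTCF for each gene of 5 lists, with filled points for an adjusted p under 0.05, open points for the rest and a bar at the median of the list. The medians are 0.069 for the cytosolic synthetases known as ATF4 targets, -0.021 for the other cytosolic ones, -0.00042 for the mitochondrial ones, 0.059 for the helpers and 0.21 for the ATF4 response genes outside the synthetases.

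For some genes the counting can mix sources. Of the longest coding transcript of Iars, 61.3% matched 3 other places, the longest at chr1:19321002-19322672, and of Farsa and Wars2 5.32% and 3.2% did, while for 32 genes no such match was found. Iars is uncertain for this reason, since only uniquely mapped reads were counted. Whether counting used the strand is not given in the sources used here, so reads of a gene and of one on the opposite strand cannot be told apart where exons overlap. This touches 22.7% of the exon bases of Iars2 (Rab3gap2), 10.8% of Farsb (Sgpp2), 9.81% of Hars and 4.56% of Hars2 (each other), 6.74% of Nars2, 5.42% of Vars, 4.54% of Cars and under 2% of Mars, Ears2, Yars and Aars. Mars overlaps Ddit3, an ATF4 response gene. Sars, Gars, Qars and Lars2 share no exon bases with another gene in this annotation.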

How the data were processed

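RNA-seq of 4 mESC libraries was analysed. The authors trimmed reads with Trim Galore 0.4.4, mapped these to mm9 by STAR, and deposited raw HTSeq-count (HTSeq 0.9.1) counts of uniquely mapped reads per gene. A deposited edgeR comparison (log2 fold change, mean log2 expression, p and false discovery rate) was not used. GENCODE M1 (NCBIM37, mm9) named 37205 of 37620 genes. Genes kept by filterByExpr (minimum count 10; 16264 genes) were scaled by TMM and tested with edgeR 4.0.16 (R 4.3.3), glmQLFit and glmQLFTest, on the line alone, with Benjamini-Hochberg adjustment over all tested genes. The common dispersion was 0.0022. Replicates differed beyond counting noise (chi-square per degree of freedom 3.25 and 3.77). Named genes were the members called, the 4 with the smallest p and the most and least abundant per compartment, and of other lists the called members or, where over 5, the 5 with the smallest p. Other genes are given by count, range or order. The members and lists were chosen with earlier results of these data known. Alternatives were other scalings, filters, edgeR's exact test, DESeq2 1.42.0, a replicate block, fits without 1 library and, added after seeing the data, halved counts.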

Additional observations from a re-analysis of the deposited data

How the results depend on the processing

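Cytosolic genes called higher (2) or lower (1) and the mitochondrial gene called lower (1) became 0, 0 and 0 with no filter on low counts. All tested genes then gave 26 higher and 3 lower, and the ATF4 response list 1 (10 in the main fit). With scaling by library total alone 0 cytosolic genes were lower, all tested genes gave 260 higher and 152 lower against 253 and 262, the cytosolic median was 0.054, and Eprs (0.0040) and Hars2 (0.0030) turned above 0. The cytosolic count lower was also 0 by edgeR's exact test. DESeq2 gave 0 mitochondrial genes lower, 129 genes higher in all and 7 calls in the ATF4 response list. It gave no adjusted p to Fars2, Nars2, Pars2, Wars2, Stc2 and Chac1, so these genes could not be called there. With each library left out in turn, where the lone library is assumed to vary like the other line, the cytosolic counts were 0 to 0, the mitochondrial count lower 0 to 1, all genes 0 to 140 higher and 0 to 102 lower, and the ATF4 response list 0 to 9. The cytosolic median was 0.036 to 0.046 and the mitochondrial one -0.016 to 0.010. Small changes turned sign there: Dars (-0.018 to 0.047), Eprs (-0.034 to 0.015), Hars (-0.040 to 0.0038), Rars (-0.056 to 0.0054), Tars (-0.0020 to 0.042), Yars (-0.0051 to 0.080), Aars2 (-0.097 to 0.012), Cars2 (-0.094 to 0.10), Ears2 (-0.075 to 0.0088), Hars2 (-0.024 to 0.0037) and Wars2 (-0.090 to 0.42). Deviations of libraries with the same replicate number were not correlated between the lines (-0.0198), which does not show whether they were prepared as pairs. With a replicate block 3 cytosolic genes were higher, Aars added (edgeR adjusted p = 0.0267), and all tested genes gave 326 higher and 372 lower. Over single genes and settings other than a left-out library, 306 values kept their direction and side of the threshold, 11 lost the call, 3 (all Aars) gained it and 2 turned sign. Halved counts, chosen after seeing the data, gave 248 genes higher and 248 lower in all and the same counts for the synthetases. Why the calls fell without a filter was not tested.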
